A study of Mus musculus with 49 samples.

Results

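The immunoglobulin kappa light chain was followed here through 36 probe sets of 9977 on the Affymetrix MG-U74Av2 mouse array. Each was chosen because its platform annotation held a symbol beginning Igk and no heavy chain (Igh) or lambda chain (Igl) symbol. No measured value entered that rule, although it was set with earlier results of these data known. Of the 36, 25 matched a single V segment, 1 matched several V segments, 5 matched V segments together with the constant segment Igkc, and 5 matched the Igk locus as a whole, alone or with a V segment or the gene Asb2. They held 20 distinct V segments of 11 V segment groups, the group being the number after Igkv in the symbol. The same 36 probe set names were all present on the older MG-U74A array. For scale, 38 probe sets of the table carried a heavy chain symbol and no light chain symbol, and 2 carried a lambda symbol.

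A kappa light chain is encoded by a V segment joined to a J segment and spliced to the constant segment Igkc. Developing B cells join these segments with the Rag1 and Rag2 recombinase after the heavy chain has been made, at the small pre-B stage, and the light chain then pairs with the heavy chain to give surface IgM on the immature B cell. V segments that have not been joined can also be transcribed. A locus that already holds a working join can recombine again, joining an upstream V segment to a downstream J segment, which is called receptor editing. In mice with a pre-assembled receptor, a V segment that the receptor does not use therefore reports on transcription or joining of the other V segments, but an array signal cannot separate joined from unjoined transcripts.

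RefSeq placed the 162 V segments of the kappa locus on chromosome 6. The 20 segments matched here were spread along it, from Igkv1-135, number 3 when the V segments are counted from the end farthest from the J segments, to Igkv6-14, number 148. Of the probe sets, 17 carried the Affymetrix suffix _f, which marks probes that are shared by members of a gene family. A signal of such a set can therefore come from related V segments as well as from the named segment, and the sets of V group 4, several of which list the same segments, are not independent measurements. Levels were compared only within a probe set, never between probe sets.

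All groups were B lineage cells of mouse bone marrow, mostly from mice 4 to 8 weeks old. Ctrl-Mhi cells (n = 4) came from B1-8h/3-83(kappa) mice, which carry 1 copy each of a loxP-flanked B1-8 heavy chain knock-in and a 3-83 kappa light chain knock-in, and Cre-Mhi and Cre-Mlo cells (n = 4 each) came from mice that carry the Mx-Cre transgene in addition, whose Cre is driven by the interferon-inducible Mx promoter. Marrow of all these mice was expanded in IL-7, kept for 2 days with interferon alpha/beta and no IL-7, and sorted as IgM high (Mhi) or IgM low (Mlo). The interferon was thus given to the controls too, and Cre-Mhi and Cre-Mlo were sorted from the same cultures. B6-M- (n = 3) were IgM-negative B220+ cells of IL-7 expanded C57BL/6 marrow that received no interferon. FxD (B220+ CD43- IgM-, pre-B fraction) and FxE (B220+ IgM+ IgD-, immature fraction, n = 3 each) were sorted straight from Balb/c marrow, and their RNA was amplified in 2 rounds. FxE Ctrl (n = 4) and FxE HA (n = 6) were fraction E cells of mice with a B cell-restricted Bcl-2 transgene, kept for 1 or 2 days in medium or with herbimycin A, a tyrosine kinase inhibitor. GFPneg and GFPpos (n = 3 each) carried an anti-HEL Ig receptor transgene (HEL, hen egg lysozyme) and a Rag-2-GFP reporter. They were expanded in IL-7 and then kept 1 day untreated and sorted as IgM+ GFP-, or 1 day with herbimycin A and sorted as IgM+ GFP+, so drug and reporter sort cannot be told apart. On the U74A array, HEL 48h cells of the same genotype had been given HEL antigen without IL-7 and sorted as IgM high GFP+, and BM 48h Ctrl cells had no antigen and were sorted as IgM high GFP- (n = 3 each), so antigen and reporter sort cannot be told apart there either. HEL-Mhi (n = 3) were IgM high HEL-Ig cells from the IL-7 culture.

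Values were MAS5 signals, the deposited brightness of a probe set on a linear scale. The U74Av2 and HEL-Mhi arrays had been brought to the same target, and for the HEL 48h and BM 48h Ctrl arrays the sources used here give no target. The median signal of the U74Av2 arrays lay between 345.9 and 544, and 1.48% to 6.86% of the probe sets were at or under 20 units, the level to which lower signals were raised before log2 was taken. Differences were tested with limma on the whole table, and a set was called changed at an adjusted p under 0.05 (Benjamini-Hochberg). Where the labels do not say that arrays of a group came from separate animals, the p-values measure the spread between these samples, which may be technical. All 5 measured B cell markers of 7 listed had mean signals of at least 500 in every U74Av2 group. Fewer cells of a type and less RNA per cell cannot be told apart in such bulk samples.

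The kappa probe sets ranged from segments that were bright in every group to segments whose level differed widely between groups. The ratio of the highest to the lowest group mean went from 1.70 for the set matching Igkj1, Igkc and 3 V segments to 136 for Igkv9-120 (93904_f_at). The median range of the 10 group means was 2.95 on the log2 scale over the 36 kappa sets, against 1.53 over all probe sets. Of the kappa sets, 12 had a mean of at least 500 in all 10 groups, and 9 were under 500 in all of them. In the 11 comparisons between 2 groups, 11 kappa sets were called in none. At the other end, Igkv4-91, Igkv1-133 and the set matching Igkv4-59 and Igkc were each called in 7.

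**Figure D1:**
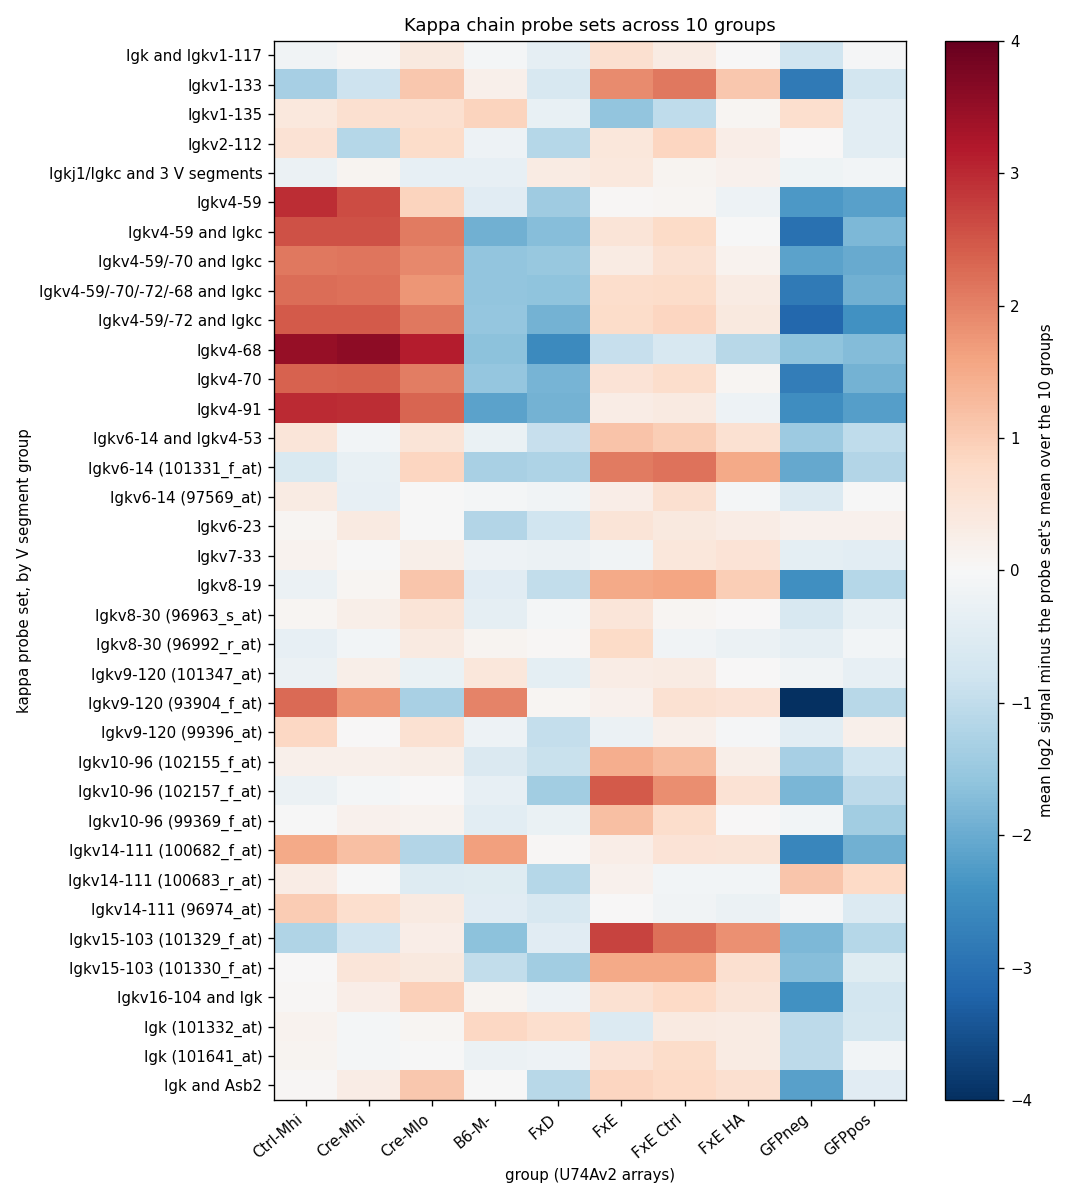
Each row is a kappa probe set, ordered by V segment group, and each column is one of the 10 groups of the U74Av2 array; colour gives the group mean of log2 signal minus the mean of that row over the 10 groups, on a scale from -4 to 4. The block of V group 4 is high in the Ctrl-Mhi, Cre-Mhi and Cre-Mlo columns and low in B6-M-, FxD, GFPneg and GFPpos, while the rows of Igkv1-133, Igkv6-14 and Igkv8-19 are highest in FxE and FxE Ctrl and lowest in GFPneg.

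The set matching Igkj1 and Igkc together with Igkv6-23, Igkv4-53 and Igkv8-30 (93086_at) changed least. Its group means ran from 82031 units in Cre-Mlo to 139683 in FxD, and it was called in none of the comparisons. In Cre-Mlo against Ctrl-Mhi it differed by -0.11 on the log2 scale (adjusted p = 0.839). The set was thus bright in IgM-negative cells as well as in IgM-positive cells. By correlation of log2 signals it ran closest to Rpl41 (0.87), a set without a symbol (0.81) and Rps24 (0.79), and not to a kappa set. Whether signals this bright can still follow differences in RNA was not tested. Igkv6-23 (102156_f_at) was the other set that was bright throughout. Its signals were 112000, 101748, 114842 and 106670 in Ctrl-Mhi and 101558, 106788, 96243 and 98024 in Cre-Mlo, which overlapped, with a difference of -0.11 (adjusted p = 0.788). It stood at 112417, 126846 and 111935 in GFPneg, and at 47637, 42319 and 46113 in B6-M-, below every Ctrl-Mhi array. Its difference in B6-M- against Ctrl-Mhi was -1.26 (SE 0.13, adjusted p = 0.00176), the one comparison in which it was called.

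Loss of the heavy chain knock-in was followed first in the probe set that lists Ighv1-72, the V segment of the B1-8 heavy chain, with Ighv1-53 and Ighm (92470_f_at). Its signals lay between 49418 and 66046 in Ctrl-Mhi, between 33631 and 42974 in Cre-Mhi and between 745.1 and 1076 in Cre-Mlo, so the labels and the targeted gene matched in direction. Among the kappa sets, 5 rose and 6 fell in Cre-Mlo against Ctrl-Mhi, beside 4.23% of all 9977 probe sets called higher and 4.1% called lower. The median difference of the 36 sets, -0.05, was close to that of all probe sets, -0.04, as the members moved both ways. With quantile normalization 5 rose and 4 fell.

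The fall was steepest in 3 probe sets, all with the suffix _f, whose probes are shared within a gene family. Igkv9-120 (93904_f_at) stood at 6826, 8077, 7177 and 8547 in Ctrl-Mhi, at 5515, 4623, 6216 and 4848 in Cre-Mhi, and at 622.1, 920.6, 750.7 and 396.7 in Cre-Mlo. All 4 Cre-Mlo arrays were far below every array of both IgM high groups, and the log2 difference was -3.57 (SE 0.23, adjusted p = 4.90e-06). Igkv14-111 (100682_f_at) went from 4606, 4675, 4419 and 5031 in Ctrl-Mhi to 756.1, 978.2, 714.7 and 519.7 in Cre-Mlo, a log2 difference of -2.69 (SE 0.17, adjusted p = 3.90e-06). Igkv4-59 (101751_f_at) went from 10409, 11575, 10877 and 10841 to 2307, 2761, 2538 and 2798, a log2 difference of -2.07 (SE 0.10, adjusted p = 7.75e-07). Groups did not overlap in any of these sets. The other sets named for the same segments moved less. Both further Igkv9-120 sets were dim and overlapped. The set 101347_at ran from 145.1 to 294.2 in Ctrl-Mhi and from 142.4 to 322 in Cre-Mlo. For 99396_at the ranges were 125.4 to 350.4 and 109.5 to 235.9. The Igkv14-111 sets 100683_r_at and 96974_at had differences of -0.79 and -0.66 (adjusted p = 0.181 and 0.0879), and all further V group 4 sets lay between -0.65 and -0.21.

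In the further sets of that V group most of the signal remained in Cre-Mlo. Igkv4-91 read 65315, 71249, 63148 and 64673 in Ctrl-Mhi and 33120, 42018, 45809 and 48852 in Cre-Mlo, a difference of -0.65 (SE 0.13, adjusted p = 0.0106). Igkv4-68 read 44131, 46539, 44469 and 44764 in Ctrl-Mhi and 32287, 37245, 34931 and 36904 in Cre-Mlo. Its groups did not overlap either, but the difference of -0.35 did not pass (adjusted p = 0.0608). The set of Igkv4-59 and Igkc differed by -0.47 (adjusted p = 0.0273), and the set of Igkv4-59, Igkv4-70, Igkv4-72, Igkv4-68 and Igkc by -0.45 (adjusted p = 0.0426).

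The 5 sets that rose in Cre-Mlo included segments at both ends of the locus. Igkv1-133, number 6 from the end far from the J segments, read 974.9, 575.9, 1324 and 1086 in Ctrl-Mhi, 1188, 1685, 1410 and 1231 in Cre-Mhi, and 4082, 5884, 5366 and 5291 in Cre-Mlo. Its lowest Cre-Mlo array was above all 8 IgM high arrays, and the log2 difference against Ctrl-Mhi was 2.43 (SE 0.24, adjusted p = 0.000158). Igkv6-14 (101331_f_at), number 148, went from 2728, 1228, 2824 and 2214 to 5331, 6200, 6126 and 6048, a difference of 1.47 (SE 0.25, adjusted p = 0.00457). Igkv8-19, number 143, went from 1517, 1206, 2001 and 1566 to 3387, 4196, 4085 and 3834, a difference of 1.32 (SE 0.19, adjusted p = 0.00138). In these sets too the groups did not overlap. The dim Igkv6-14 set 97569_at did overlap, at 144.3 to 228 in Ctrl-Mhi and 46.4 to 301.2 in Cre-Mlo. So did the dim set of Igkv6-14 and Igkv4-53, at 203.6 to 295.3 and 165.8 to 303.2. The remaining rises were in sets that match the locus as a whole. The set of Igk and Asb2 went from 1739, 2043, 2482 and 2899 to 4283, 5647, 4096 and 4254 (1.01, SE 0.21, adjusted p = 0.0114), and the set of Igkv16-104 and Igk rose by 0.90 (adjusted p = 0.0234).

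**Figure D2:**
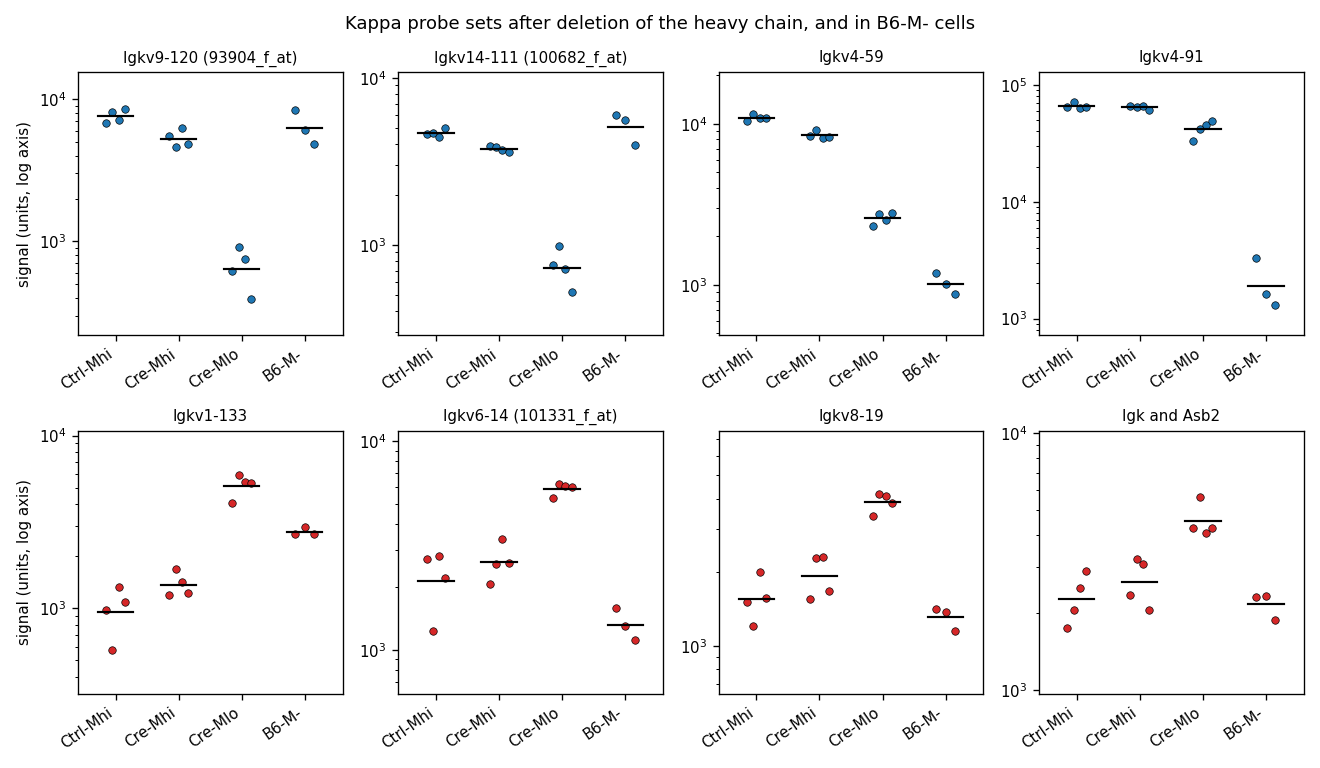
Each panel shows 1 kappa probe set, with signal in MAS5 units on a log axis, a point for each array of Ctrl-Mhi, Cre-Mhi, Cre-Mlo and B6-M-, and a bar at the geometric mean of the group; the blue panels are sets that fell in Cre-Mlo and the red panels sets that rose. Igkv9-120 and Igkv14-111 are low only in the Cre-Mlo column, Igkv4-59 and Igkv4-91 are lower still in B6-M-, and Igkv1-133 is above the controls in both Cre-Mlo and B6-M-.

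Within the cultures that held both Cre-Mhi and Cre-Mlo cells, 4 sets rose and 6 fell, beside 3.14% of all probe sets called higher and 2.95% lower. Igkv9-120 differed by -3.03, Igkv14-111 by -2.38, Igkv4-59 by -1.71 and Igkv1-133 by 1.90 (adjusted p = 2.12e-05, 1.32e-05, 4.48e-06 and 0.00085). With the replicate number as a block, 3 rose (Igkv1-133, Igkv6-14 and Igkv8-19) and 3 fell (Igkv9-120, Igkv14-111 and Igkv4-59). Cre-Mhi and Cre-Mlo arrays of a number came from the same cultures. The block also held the Ctrl-Mhi array of that number, which shares only the number, so this was not a paired test of these sorts alone. The 4 sets whose call was lost with the block were Igkv4-91, Igkv4-68, the set of Igkv4-59 and Igkc and the set of Igk and Asb2. Without Cre-Mhi replicate 1 the count was 5, and without Cre-Mhi replicate 2 or Cre-Mlo replicate 2 it was 6.

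Cre-Mhi cells, IgM high with the Mx-Cre transgene, were close to Ctrl-Mhi. By limma no kappa set was called, and 0.02% of all probe sets were. At an unadjusted p under 0.05 there were 5 kappa sets, beside 7.13% of all probe sets. For the 11 sets called in Cre-Mlo, the Cre-Mhi mean lay between the other group means in 11 of 11. Over all 831 probe sets called in that comparison it did so in 666, or 80.1%. The Cre-Mhi shift was 15.0% of the Cre-Mlo difference for Igkv9-120, 17.5% for Igkv4-59, 21.7% for Igkv1-133 and 4.27% for Igkv4-91. Since the Cre-Mlo calls chose these sets, the shares are descriptions.

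Among the plasma cell markers, Irf4 and Prdm1 were higher in Cre-Mlo. The summed signal of 5 measured markers of 6 listed was 26162 to 33264 in Cre-Mlo and 9707 to 13456 in Ctrl-Mhi. Irf4, a factor that acts in both light chain transcription and plasma cells, gave most of it, with means of 26366 and 8876. Prdm1 had means of 551 and 116.4 and Sdc1, which overlapped, of 377.7 and 237.3, while Xbp1 stood at 1991 and 2199 and Jchain at 222.1 and 307.1. Their part in the kappa differences was not tested.

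The IgM-negative B6-M- cells were bright for the sets Igkv9-120 (93904_f_at) and Igkv14-111 (100682_f_at), which were low in Cre-Mlo cells. Their V group 4 signals were far lower than those of the knock-in cells. Against Ctrl-Mhi, 1 kappa set rose and 11 fell, beside 6.91% of all probe sets called higher and 7.3% lower. All 8 V group 4 sets fell, by 3.42 to 5.15 on the log2 scale, while the other 28 sets had a median difference of -0.35. Quantile normalization moved the median of all probe sets by 0.10 in this comparison. Igkv4-68 read 1705, 1083 and 1091 and Igkv4-91 read 3295, 1628 and 1305, each far under the Ctrl-Mhi arrays. Their differences were -5.15 (SE 0.20, adjusted p = 4.17e-05) and -5.11 (SE 0.31, adjusted p = 0.000274). Igkv9-120 read 8358, 6053 and 4851, within reach of the Ctrl-Mhi arrays, and Igkv14-111 (100682_f_at) read 5986, 5627 and 3949. Neither was called. Igkv1-133 was the set that rose, at 2689, 2963 and 2689, a difference of 1.55 (SE 0.29, adjusted p = 0.0152). These groups differ in receptor, strain, interferon and stage, which cannot be told apart.

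V group 4 was brightest in the knock-in cells. The 8 sets had mean signals from 8494 to 64791 in Cre-Mhi and from 10926 to 66096 in Ctrl-Mhi, and in GFPneg cells, which carry the HEL-Ig receptor, they had means from 309.3 to 1976. Fraction E cells with their own varied receptors lay between. Igkv4-91 read 10731, 10433, 9767 and 13043 in FxE Ctrl and 1501, 1515 and 1552 in GFPneg. Between these groups the arrays did not overlap. In the order of group means of Igkv4-91, Ctrl-Mhi and Cre-Mhi were followed by Cre-Mlo, FxE Ctrl, FxE, FxE HA, FxD, B6-M-, GFPpos and GFPneg. Ctrl-Mhi and Cre-Mhi overlapped, as did FxE Ctrl, FxE and FxE HA, and so did each pair of neighbours from FxD to GFPneg.

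**Figure D3:**
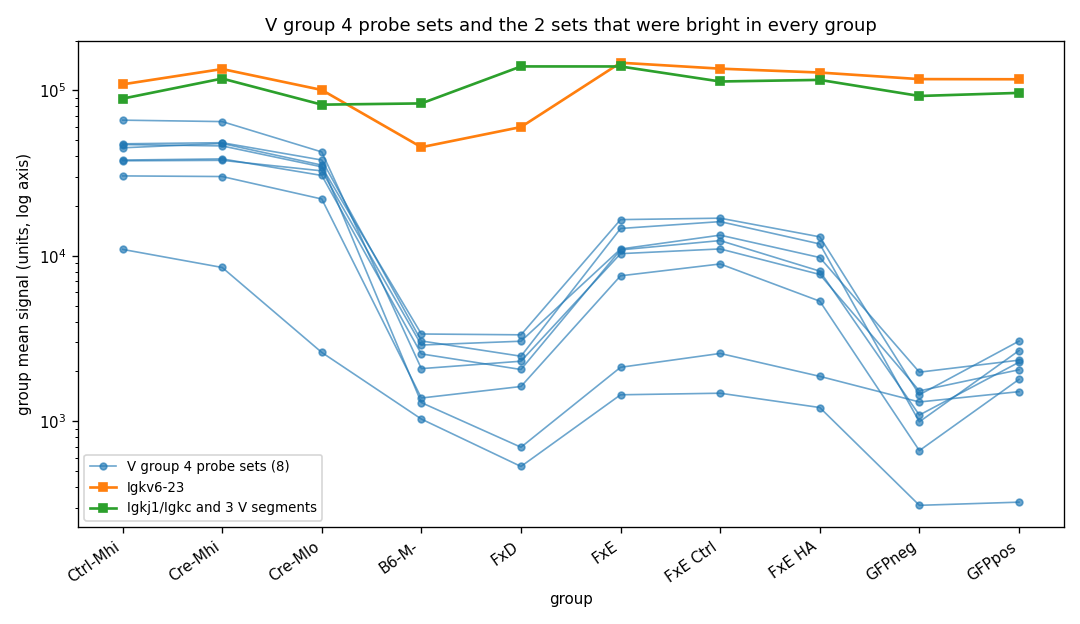
Group mean signals, in MAS5 units on a log axis, of the 8 V group 4 probe sets, Igkv6-23 and the set matching Igkj1 and Igkc across the 10 groups of the U74Av2 array. The V group 4 lines are highest in Ctrl-Mhi and Cre-Mhi, with means of 8494 to 66096, and lowest in most sets in GFPneg, while the other 2 lines stay between 45356 and 147074.

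GFPneg cells had the lowest group mean of most kappa sets. They differed from Ctrl-Mhi in receptor, strain, interferon and days after IL-7, which cannot be told apart. Against Ctrl-Mhi, none of the kappa sets rose and 18 fell, beside 1.27% of all probe sets called higher and 1.84% lower, and the median difference of the 36 sets was -1.47 against -0.04 over all probe sets. Igkv9-120 read 21, 53.8 and 94.5, near the level of 20 to which low signals were raised, so its log2 difference of -7.33 (adjusted p = 2.63e-06) depends on that level. Igkv14-111 (100682_f_at) read 280.5, 257.5 and 265.1, a difference of -4.13 (SE 0.19, adjusted p = 4.78e-07). The V group 4 differences ran from -5.59 to -4.26. Igkv1-133, at 324.2, 351.8 and 333.8, and Igkv6-14, at 712.1, 787.4 and 872.9, fell by 1.49 and 1.44 (adjusted p = 0.00998 and 0.0243). The kappa sets were also tightly grouped here, with a median SD of 0.10 on the log2 scale over the 13 kappa sets that averaged 500 units or more there, against 0.17 over all probe sets at that level.

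In polyclonal FxE Ctrl cells, V group 4 was lower than in Ctrl-Mhi and most other called V segments were higher. Of the 36 sets 7 rose and 11 fell, beside 12.7% of all probe sets called higher and 16.2% lower. With quantile normalization, which moved the median of all probe sets by 0.16, the split was 12 and 11. Igkv1-133 read 10010, 10717, 10229 and 10708, with a difference of 3.46 (SE 0.23, adjusted p = 5.46e-06). Igkv6-14 (101331_f_at) read 14769, 11843, 17943 and 13998 (2.76, adjusted p = 4.36e-05), Igkv8-19 read 5356, 4862, 5736 and 5529 (1.79, adjusted p = 4.23e-05), and Igkv15-103 (101329_f_at) read 481, 368.9, 714.9 and 507.9 against 60.5, 84.2, 21.9 and 48.2 (3.39, adjusted p = 0.000136). Each of these V segments lay above every control array. On the falling side, Igkv4-68 at 3102, 2366, 2327 and 2464 differed by -4.14 (SE 0.14, adjusted p = 1.44e-07), and Igkv9-120 at 2469, 1956, 2939 and 2356 by -1.66 (SE 0.38, adjusted p = 0.00773). Sums over 10 of 10 myeloid markers were 29879 to 128406 in FxE Ctrl and 2337 to 3859 in Ctrl-Mhi. Their part in these differences was not tested. Receptor, strain, the Bcl-2 transgene, interferon and culture cannot be told apart in this comparison.

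Set against GFPneg, FxE Ctrl cells were higher in most kappa sets. In all, 22 kappa sets rose and 1 fell, beside 12.2% of all probe sets called higher and 15.8% lower, and all 8 V group 4 sets were among those that rose. The rises were 5.66 for Igkv9-120, 4.95 for Igkv1-133, 4.20 for Igkv6-14 (101331_f_at) and 4.02 for Igkv8-19 (adjusted p = 1.05e-05, 1.40e-06, 8.40e-06 and 8.17e-07). The set that fell was Igkv14-111 (100683_r_at), by 1.21 (adjusted p = 0.00153), although the Igkv14-111 set 100682_f_at rose by 3.15 (adjusted p = 3.09e-06). Myeloid marker sums over 10 of 10 markers were 29879 to 128406 in FxE Ctrl and 2486 to 2751 in GFPneg, and their part in these differences was not tested. Receptor, strain, the Bcl-2 transgene and culture cannot be told apart between these groups.

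In normal marrow, kappa sets were lower in the pre-B fraction FxD than in the immature fraction FxE. The difference was below 0 in 34 of 36 sets, with a median of -1.45 against 0.04 over all probe sets, and 13 sets fell and none rose, beside 1.25% of all probe sets called lower and 1.74% higher. Igkv6-14 (101331_f_at) read 1188, 1183 and 1858 in FxD and 17118, 9086 and 16401 in FxE, a difference of -3.31 (SE 0.36, adjusted p = 0.0166). Igkv1-133 read 1225, 1282 and 2262 in FxD and 12080, 6614 and 8607 in FxE (-2.53, SE 0.37, adjusted p = 0.0257). Igkv4-91 read 2756, 1804 and 2345 in FxD and 10730, 9923 and 10232 in FxE (-2.18, SE 0.25, adjusted p = 0.0175). In each of these segments the fractions were well apart. Of the 8 V group 4 sets 7 fell, and so did 6 of the other 28.

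Not all V segments took part. Igkv9-120 read 2843, 940.8 and 1721 in FxD and 2178, 957.1 and 2570 in FxE, and Igkv14-111 (100682_f_at) read 2941, 977.6 and 1651 in FxD and 3037, 997 and 2536 in FxE. Both segments overlapped between the fractions and showed the same low array, replicate 2, in each. The set of Igkj1 and Igkc read highest in an FxD array, at 220028. The FxD calls were fragile. The count was 0 when FxD replicate 2 was left out, and likewise for FxE replicates 1 and 3. Without FxD replicate 1 it was 1, and it was 0 with the replicate number as a block. Without FxD replicate 3 it was 6 and without FxE replicate 2 it was 5. Both fractions also held other cells: myeloid marker sums were 36549 to 77193 in FxD and 66837 to 275532 in FxE, sums of 4 measured erythroid markers of 6 listed were 60203 to 121644 and 116639 to 160778, and B cell marker sums were 36962 to 44101 and 50742 to 61165. Their part in the kappa differences was not tested.

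Herbimycin A was given to cells with 2 kinds of receptor. In HEL-Ig cells, GFPpos against GFPneg, 1 kappa set rose and none fell, beside 1.37% of all probe sets called higher and 1.21% lower. The set was Igkv9-120 (93904_f_at), at 21, 53.8 and 94.5 in GFPneg and at 1189, 604.4 and 544.8 in GFPpos. All 3 treated arrays stood above the untreated ones, with a difference of 3.95 (SE 0.63, adjusted p = 0.0473). With low signals raised to 100 units in place of 20 the difference was 2.87 (adjusted p = 0.0278). The call was lost when any 1 of the 6 arrays was left out, with adjusted p between 0.0919 and 0.147 and differences between 3.36 and 4.44. Igkv14-111 (100682_f_at) read 492.1, 422.8 and 382.2 against 280.5, 257.5 and 265.1, also without overlap, but its difference of 0.68 did not pass (adjusted p = 0.0807).

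The 3 GFPpos arrays were unlike each other in the kappa sets. In GFPpos replicate 1, 8 of 36 kappa sets were above all GFPneg arrays and 14 below all of them. In replicate 2 the numbers were 27 above and 2 below, and in replicate 3 they were 24 above and 6 below. Over all probe sets the share above was 33.1%, 30.2% and 27.3% for the same arrays, and the share below was 32.3%, 29.7% and 35.8%. Igkv1-133 read 583.2, 1950 and 2699 in GFPpos, where GFPneg read 324.2, 351.8 and 333.8, a difference of 2.11 that did not pass (adjusted p = 0.128). Igkv6-14 (101331_f_at) read 470.9, 2468 and 2565 against 712.1, 787.4 and 872.9, and Igkv8-19 read 268.4, 1432 and 1459 against 344.1, 337.6 and 311.1. In both of these segments replicate 1 fell below the untreated arrays and the other 2 lay above them. Over the 17 kappa sets that averaged 500 units or more in GFPpos, the median SD there was 0.89 on the log2 scale. It was 0.22 over all probe sets at that level.

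Leaving out GFPpos replicate 1, a choice that its own kappa values brought to notice, 7 sets rose. They were Igkv1-133 (2.77), the set of Igk and Asb2 (2.26), Igkv8-19 (2.13), Igkv6-14 (1.67), Igkv4-70 (1.44) and the sets 101640_f_at (1.96) and 97566_f_at (1.84), which list V group 4 segments with Igkc. Igkv9-120 was not among them (3.60, adjusted p = 0.101). Since kappa values led to that choice, the 7 rises are a description and no independent support. Plasma marker sums were 23308 to 29038 in GFPpos and 8211 to 9639 in GFPneg. Irf4 gave most of them, with means of 23803 and 5833. Prdm1 had means of 656.8 and 100.9, and Sdc1, which overlapped, of 319 and 82.5. Xbp1 stood lower in GFPpos, at 1133 and 2559, and so did Jchain, at 193.4 and 282.2. Their part was not tested.

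In polyclonal fraction E cells, kappa sets were mostly a little lower with herbimycin A. By limma none was called in FxE HA against FxE Ctrl, beside 3.37% of all probe sets, and 12 had an unadjusted p under 0.05, beside 15.5%. The difference was below 0 in 32 of 36 sets, with a median of -0.32 against 0.07 over all probe sets. Igkv1-133 ran from 2037 through a median of 6108 to 6310 in FxE HA and stood at 10010 to 10717 in FxE Ctrl. The groups did not overlap, but the difference of -1.11 (SE 0.31) did not pass (adjusted p = 0.0976). Without FxE HA replicate 5, the lowest array, 1 set was called. Igkv6-14 (101331_f_at) ran from 6190 through 9666 to 12548, overlapping its controls, with a difference of -0.63 (adjusted p = 0.212). Igkv9-120 ran from 1362 through 2194 to 3478, around its control values. Sums of 4 measured erythroid markers of 6 listed were 13200 to 42102 in FxE HA and 5477 to 14522 in FxE Ctrl. Myeloid marker sums over 10 of 10 markers were 28607 to 136266 and 29879 to 128406. T cell marker sums over 7 measured markers of 8 listed were 36529 to 56326 in FxE HA and 21337 to 32685 in FxE Ctrl. Cd2 alone gave most of them, with means of 47837 and 24721. Cd3e stood at 101.2 and 108.5, Cd3g at 61.5 and 78.6 and Cd8a at 41.6 and 52.9. Cd4 stood at 540 and 403, Cd3d at 128 and 118 and Thy1 at 98.6 and 97.2, with overlapping arrays in each. Their part was not tested.

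The herbimycin A effects in the 2 receptor settings were compared directly. The difference between them was called for 2 kappa sets, both higher in the HEL-Ig cells, beside 0.341% of all probe sets higher and 0.351% lower. It was 3.99 for Igkv9-120 (SE 0.64, adjusted p = 0.00986) and 3.22 for Igkv1-133 (SE 0.62, adjusted p = 0.0345). Without GFPpos replicate 1, whose omission its own kappa values prompted, the count was 11, which is a description only. Igkv9-120 was called whichever of the 16 arrays was left out, while the call of Igkv1-133 held without GFPpos replicate 1 or FxE HA replicate 3, 5 or 6 and was lost without any other array, leaving 1. Reporter sort, strain and the Bcl-2 transgene differed along with the receptor and cannot be told apart from it.

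**Figure D4:**
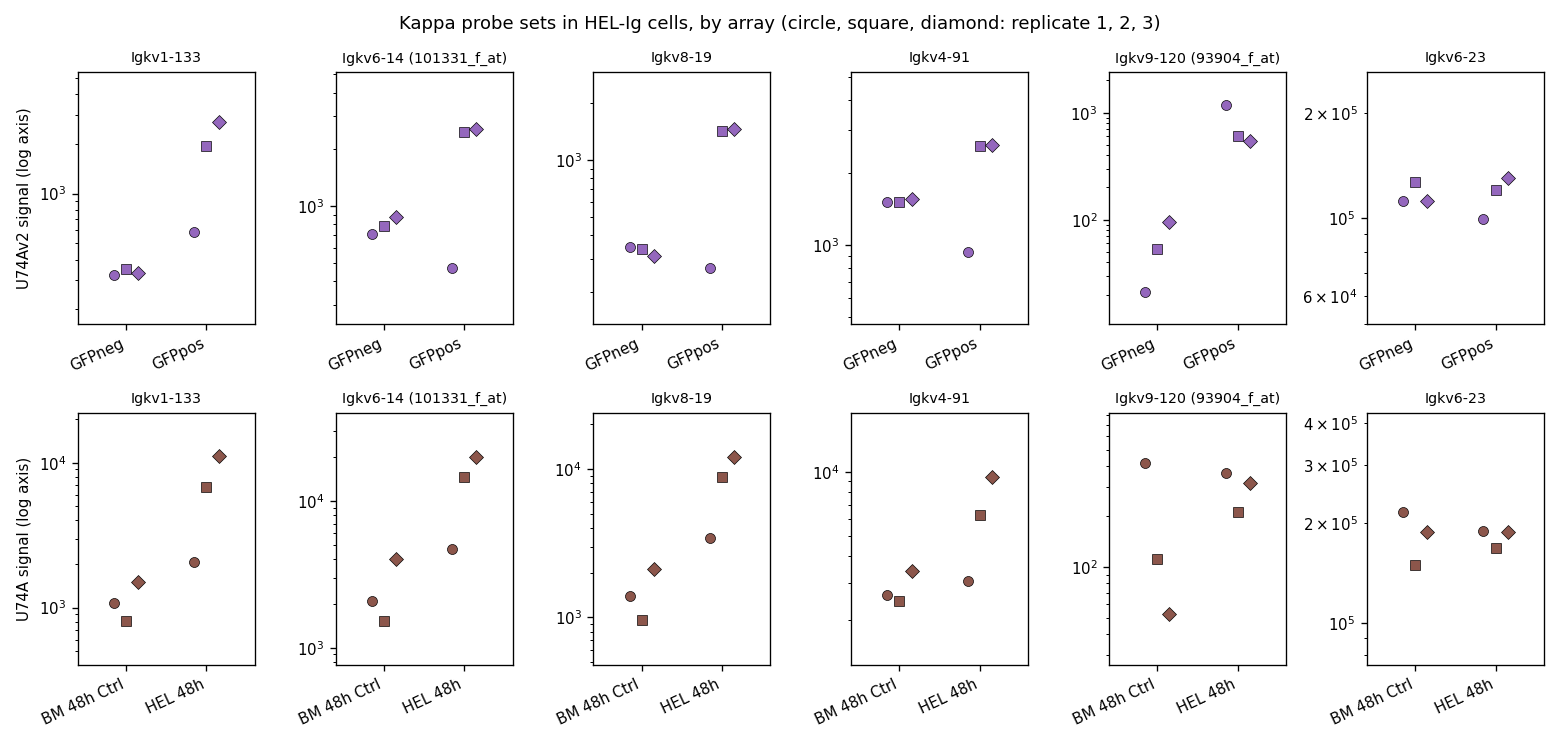
Signals in MAS5 units on a log axis of 6 kappa probe sets in HEL-Ig cells, with GFPneg and GFPpos in the top row and BM 48h Ctrl and HEL 48h in the bottom row, which was scaled as a separate table; circle, square and diamond are replicates 1, 2 and 3. In most panels GFPpos replicate 1 and HEL 48h replicate 1 are the lowest treated arrays, with Igkv1-133 at 583.2 and 2057, and Igkv9-120 is an exception, with GFPpos replicate 1 highest at 1189.

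Antigen was followed in the separate U74A table. In HEL 48h against BM 48h Ctrl, none of the 36 kappa sets was called by limma, beside 0.23% of 12588 probe sets, and 11 had an unadjusted p under 0.05, beside 11.6%. The median difference was 1.13 against -0.11 over all probe sets, and the difference was above 0 in 31 of 36. In 11 of 36 sets all antigen arrays were above all controls, against 8.48% of all probe sets. The set of Igk and Asb2 came nearest to a call, at 4736, 9572 and 11436 with antigen and 1228, 1157 and 1534 without (2.63, SE 0.37, adjusted p = 0.0821). Igkv1-133 read 2057, 6756 and 11094 with antigen and 1071, 806.5 and 1495 without (2.30, SE 0.64, adjusted p = 0.271), and Igkv8-19 read 3405, 8833 and 12009 with antigen and 1401, 956.4 and 2131 without (2.33, adjusted p = 0.208). In these sets replicate 1 was the lowest antigen array, yet it lay above all 3 controls.

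Within the 2 scan days of these arrays, replicates 1 and 2 on the first and replicate 3 on the second, the differences were 2.50 and 2.90 for the set of Igk and Asb2, 2.00 and 2.89 for Igkv1-133 and 2.24 and 2.49 for Igkv8-19. Igkv9-120 did not share the shift, at 364.1, 213.7 and 317 with antigen and 414.9, 110.9 and 52.4 without, which overlapped. Over the 24 kappa sets that averaged 500 units or more in HEL 48h, the median SD there was 0.81, against 0.30 over all probe sets at that level. HEL-Mhi cells, taken from the IL-7 culture, read 315.3, 398.8 and 255.6 for Igkv1-133 and 470, 527.6 and 794 for the set of Igk and Asb2, below both groups. Plasma marker sums were 17119 to 37047 in HEL 48h and 8818 to 16416 in BM 48h Ctrl. Irf4 gave most of them, with means of 25340 and 6393. Sdc1 had means of 633.3 and 80.1 and Prdm1 of 280 and 229.7, and both overlapped between the groups. Xbp1 stood lower in HEL 48h, at 2403 and 4673, and so did Jchain, at 335.0 and 372.4. Their part was not tested.

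Across the 37 arrays of the U74Av2 table, the kappa sets showed runs of like pattern, given here as Pearson correlations of log2 signals without a test, since arrays of a group share genotype and culture. Igkv8-19 ran closest to a set annotated to Adck1 (r = 0.98), whose name also ends in _f and whose annotation was not checked, and then to Igkv6-14 (0.95), the set of Igk and Asb2 (0.92) and Igkv1-133 (0.91). Igkv8-19 and Igkv6-14, numbers 143 and 148, lie near the same end of the locus, and Igkv1-133, number 6, near the other. Igkv4-91 ran closest to a set without a symbol (0.99) and then to the set of Igkv4-59 and Igkc (0.98). Igkv4-68 ran closest to the interferon-induced gene Mx2 (0.96), then to a set that lists Csprs (0.94) and to Igkv4-91 (0.94). The 3 groups with the highest Igkv4-68 level had received interferon and also carried the 3-83 kappa knock-in, which cannot be told apart. Of the 36 kappa sets, 15 were most like another kappa set, 14 most like a set of another gene and 7 most like a set without a symbol. Of the 14, 2 were most like that Adck1 set.

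Igkv14-111 (100682_f_at) and Igkv9-120 kept company with heavy chain sets instead. Igkv14-111 correlated at 0.96 with a set annotated to Ighg3 (93927_f_at), an IgG heavy chain gene, and at 0.93 with Igkv9-120, which correlated at 0.91 with the same Ighg3 set. That heavy chain set had means of 2065 in Ctrl-Mhi, 1898 in Cre-Mhi, 328 in Cre-Mlo, 4808 in B6-M- and 89.7 in GFPneg. It was lower in Cre-Mlo than in Ctrl-Mhi by -2.74 (SE 0.29, adjusted p = 0.000206) and higher in B6-M- by 1.21 (SE 0.23, adjusted p = 0.0173). Igkv4-59 was most like Igkv4-91 (0.93), and among heavy chain sets most like the set that lists Ighv1-72 (0.88). In Cre-Mlo that set was lower by -6.03 (SE 0.16, adjusted p = 3.27e-09).

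**Figure D5:**
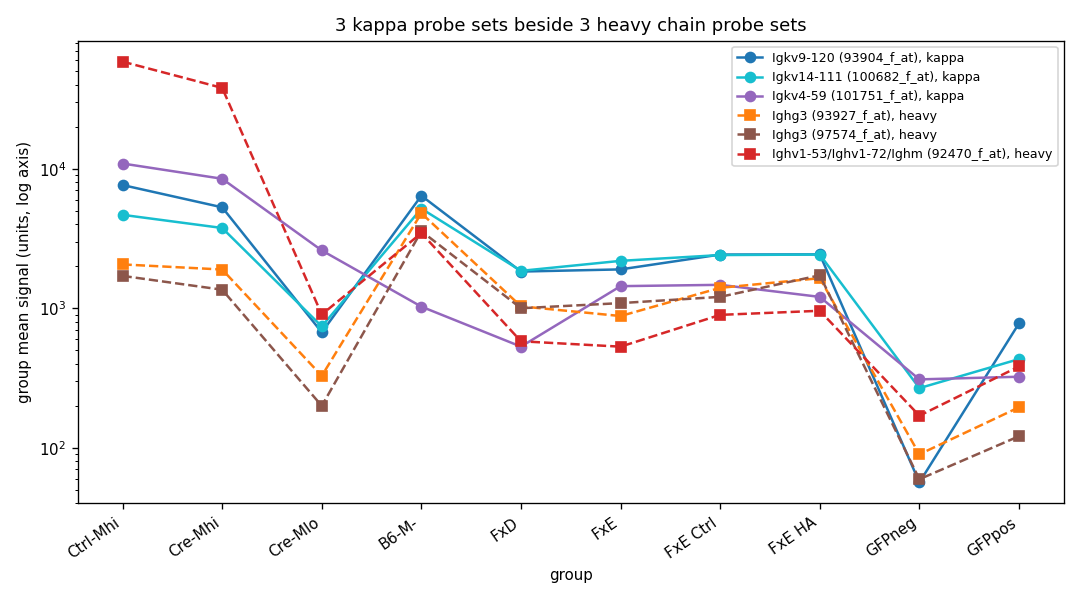
Group mean signals, in MAS5 units on a log axis, of 3 kappa sets (Igkv9-120, Igkv14-111 and Igkv4-59) and 3 heavy chain sets (2 annotated to Ighg3 and the set that lists Ighv1-72) over the 10 groups; heights of different sets are not comparable, only the shapes of the lines. Igkv9-120, Igkv14-111 and the Ighg3 sets are low in Cre-Mlo and GFPneg and high in B6-M-. The Ighv1-72 set has means of 58755 in Ctrl-Mhi, 3464 in B6-M- and 903.3 in Cre-Mlo.

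The remaining kappa sets were dim. In all 10 groups, 9 were under 500 in mean, among them both sets annotated to Igk alone, the Igkv1-135, Igkv2-112 and Igkv6-14 (97569_at) sets and 2 further Igkv9-120 sets (101347_at and 99396_at). Of these 9, the set of Igkv6-14 and Igkv4-53 fell in FxD against FxE (-2.06, adjusted p = 0.0186) and rose in FxE Ctrl against GFPneg, and Igk (101641_at) rose in FxE Ctrl against GFPneg (1.77, adjusted p = 0.00142). The other 7 were called in none. Sets of 1 segment could also differ in course, as the Igkv9-120 sets did: 93904_f_at had a 136-fold range of group means, 101347_at a 1.88-fold range and 99396_at a 3.36-fold range. Igkv10-96 (102155_f_at) was highest in FxE, at 1320, 1088 and 1700, and read 326.8, 183.6 and 314.4 in FxD (-2.34, adjusted p = 0.0244). Igkv7-33 and both Igkv8-30 sets were called in no comparison.

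Genes that act on the kappa locus were followed as 3 lists, of which 22 of 28 regulators of light chain transcription, 7 of 11 recombination genes and 14 of 17 genes of receptor assembly and folding were measured on the U74Av2 array. In Cre-Mlo against Ctrl-Mhi, 4 recombination genes rose and 1 fell. The recombinase genes Rag1 and Rag2 rose by 4.06 and 2.86, Dntt, the terminal transferase, by 4.79 and Xrcc6, an end-joining factor, by 2.43, and Prkdc, an end-joining kinase, differed by -0.68. Their median was 2.43 against -0.04 over all probe sets. Of the regulators 3 rose and 4 fell. Irf4, which binds the kappa enhancers, rose by 1.58, Tcf12 by 1.45 and Myb by 1.06, while Pou2f2, an octamer factor, differed by -1.49, Mef2c by -1.42, Spib by -0.66 and Irf8 by -0.64. Of the assembly genes, the surrogate light chain genes Vpreb1 and Igll1 rose by 1.17 and 0.95, and 12 did not pass. Against Cre-Mhi, 3 regulators rose and 5 fell, 4 recombination genes rose, and 2 assembly genes rose and 1 fell. In Cre-Mhi against Ctrl-Mhi none of the 3 lists had a call. Shares of all probe sets called are given above with the kappa counts of each comparison.

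Recombination genes rose again where cells were IgM-negative or GFP+. In B6-M- against Ctrl-Mhi 4 of its genes rose, and of the regulators 2 rose and 7 fell. In FxD against FxE, Rag1 rose by 6.08, Rag2 by 5.50 and Xrcc6 by 3.39, and among the regulators Myb rose by 2.58 and Irf4 by 1.83 while Mef2c differed by -1.38. In GFPpos against GFPneg, Rag1 rose by 7.14, Rag2 by 6.28, Dntt by 5.72 and Xrcc6 by 2.55, and Irf4 by 2.03 and Myb by 1.21. In HEL 48h against BM 48h Ctrl, Rag2 rose by 5.04 and Rag1 by 4.77, with none of 23 regulators called. The reporter sort of the last 2 comparisons selects on Rag2 expression itself, so those Rag rises are no independent result. Without that sort, in FxE HA against FxE Ctrl, Rag1 rose by 2.47 and Xrcc6 by 2.16 while Prkdc differed by -1.12. There 5 regulators fell, Spib by 2.14, Irf8 by 1.52, Id3 by 1.33, Mef2c by 1.16 and Ets1 by 1.09, and Irf4 differed by -0.06 (adjusted p = 0.922). The herbimycin A effect on Irf4 differed between the 2 receptor settings by 2.09 (adjusted p = 0.00179).

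Between groups of unlike receptor and culture the lists moved in other ways. In GFPneg against Ctrl-Mhi, Rag1 and Rag2 differed by -3.26 and -2.55, 1 assembly gene rose and none of the regulators was called. In FxE Ctrl, 13 regulators fell and 2 rose against Ctrl-Mhi, beside 16.2% of all probe sets called lower and 12.7% higher. Against GFPneg 13 fell and 1 rose, beside 15.8% lower and 12.2% higher. The list medians were -0.85 and -1.14.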

How the data were processed

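RNA of sorted mouse bone marrow cells was hybridised to Affymetrix MG-U74Av2 (37 arrays) and MG-U74A (12 arrays) chips. The authors deposited linear MAS5 signals (intensity) in a table per chip; tests were run within a table. Signals of the U74Av2 and HEL-Mhi arrays were scaled to a target of 1500 units, and for the other U74A arrays the target is not given in the sources used here. HEL-Mlo arrays, on a far lower scale than the rest of their table, entered no comparison. Of the 9977 probe sets, 8724 had 1 symbol, 346 several and 907 none in the platform annotation. The members and gene lists were chosen with earlier results of these data known. Signals were raised to at least 20 units and log2 transformed. Groups were compared with limma 3.58.1 (R 4.3.3; lmFit and eBayes, two-sided), with Benjamini-Hochberg adjustment over the whole table and calls at adjusted p under 0.05. The Cre-Mlo, Cre-Mhi and Ctrl-Mhi arrays shared a fit, as did the Ctrl-Mhi, GFPneg and FxE Ctrl arrays; the herbimycin A comparison of fraction E cells had culture time as a factor. The number of arrays limits the precision. Scripts were tested on simulated data. Members named in the text were drawn, per comparison, from the 6 largest rises and falls among called members. Members that match Igkc or the locus as a whole were added, and so were some chosen after their values were seen. Not every member of these kinds is named. Pairing was checked on deviations from group means over probe sets averaging 500 units or more: same-numbered Cre-Mlo and Cre-Mhi arrays, sorted from the same cultures, correlated at 0.177 to 0.474, and HEL 48h and BM 48h Ctrl arrays at 0.111 to 0.239. Over all probe sets the ranges were 0.0112 to 0.166 and 0.0334 to 0.0926. Alternatives were a floor of 100 units, quantile normalization, a filter on dim probe sets, the replicate block, 1 fit over all arrays, the methods' t-test (p under 0.01, or 0.05 for FxD against FxE, with at least a 2-fold change and a difference over 200 units), scan day as a block and each array left out. The sequences of the probe sets' targets were not used here.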

Additional observations from a re-analysis of the deposited data

Results flagged for a closer look

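Of 90 groups of 4 or more arrays in which a single far array of a kappa probe set was looked for by Dixon's test, 4 held one, fewer than the 1 in 20 that chance gives. Igkv14-111 (100683_r_at) was low in Cre-Mhi replicate 3, at 236.9 units where the other 3 arrays lay between 604.3 and 677.9. The set of Igk and Asb2 was high in Cre-Mlo replicate 2, at 5647 where the others lay between 4096 and 4283. Igkv4-70 was high in Ctrl-Mhi replicate 2, at 44894 where the others lay between 35264 and 35746. Igkv1-133 was low in FxE HA replicate 5, at 2037 where the others lay between 5663 and 6310. The herbimycin A effect differed between GFPpos cells and FxE HA cells, by a test of the difference itself, for Igkv9-120 (3.99 on the log2 scale) and Igkv1-133 (3.22).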

How the results depend on the processing

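Counts of kappa sets called moved with the setting as follows, and the cause was not tested. The methods' t-test asked for p under 0.01 (0.05 for FxD against FxE), a 2-fold change and a difference over 200 units, and its adjusted form for the same with the adjusted p; the looser cut of adjusted p under 0.05 was chosen after seeing the data. In Cre-Mlo against Ctrl-Mhi, 11 sets were called, 7 in a fit over all 37 arrays, 6 by the t-test, 2 by its adjusted form and 6 at the looser cut; with quantile normalization 5 rose and 4 fell. In Cre-Mlo against Cre-Mhi, 10 were called, 6 with quantile normalization, 6 with the replicate block, 4 over all arrays, 5 by the t-test, 2 by its adjusted form and 5 at the looser cut. In B6-M- the 12 became 6 by the adjusted t-test and 10 at the looser cut. The 13 of FxD against FxE became 0 with the block and 0 by the adjusted t-test. The 1 of GFPpos against GFPneg became 2 with a floor of 100 units, 2 with dim sets left out (Igkv1-133 and the set of Igk and Asb2), 6 over all arrays, and 0 with quantile normalization, the block or the t-test before or after adjustment, at either cut. In FxE HA the 0 became 3 with dim sets left out, 1 over all arrays (Igkv1-133) and 1 by the t-test. In HEL 48h the 0 became 2 with dim sets left out (the sets of Igk and Asb2 and of Igkv16-104 and Igk). That filter used the mean over both groups, so a set could pass it through its higher group alone. Igkv1-133 and the set of Igk and Asb2 had GFPneg means of 336.6 and 474.4. The set of Igkv16-104 and Igk had a BM 48h Ctrl mean of 383. Calls gained in this way are no independent support. By the adjusted t-test the 18 of GFPneg against Ctrl-Mhi became 1 (9 at the looser cut) and the 23 of FxE Ctrl against GFPneg became 2 (18 at the looser cut). Leaving out each array gave 8 to 13 in Cre-Mlo against Ctrl-Mhi, 5 to 10 against Cre-Mhi, 0 in Cre-Mhi against Ctrl-Mhi, 9 to 12 in B6-M-, 0 to 6 in FxD, 0 to 7 in GFPpos, 0 to 1 in FxE HA, 16 to 18 in GFPneg, 17 to 19 and 22 to 24 in FxE Ctrl against Ctrl-Mhi and GFPneg, 0 in HEL 48h and 1 to 11 in the comparison of herbimycin A effects. The replicate block gave 9 in Cre-Mlo against Ctrl-Mhi, 8 in B6-M-, 14 in GFPneg and 17 and 23 in FxE Ctrl, whose arrays share only a number, and left HEL 48h at 0, as did scan day as a block. For the named sets the t-tests were not followed set by set. Under the other settings none of their differences reversed its sign. Of 62 differences of 18 named sets, 43 kept their call in every alternative other than the t-tests. Dim sets and GFPneg values near the floor limit what these signals can show.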
